A study of Arabidopsis thaliana with 12 samples.

Results

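The cytosolic 40S ribosomal subunit binds mRNA and reads its codons, and in Arabidopsis thaliana most of its proteins are encoded by several near-identical genes, the paralogues compared here. The list holds 60 loci that encode 27 such proteins (RPS2 to RPS27), taken by locus identifier. The annotation supplied for the ATH1 array, an Affymetrix chip on which each transcript is read by a set of short probes, pairs 47 of these loci (21 proteins) with 42 probe sets, out of 22746 probe sets that are not controls. Of the 42 probe sets, 35 carry 1 locus and 7 are shared by several loci, and 3 of the shared ones also match loci outside the list (the RPS2 set of AT1G58380, the RPS20 set of AT3G45030 and the RPS26 set of AT2G40510). Paralogues are close in sequence, so that a probe set annotated to 1 locus can still pick up another, and what the arrays give is the probe set's signal. The 42 probe sets all passed the filter on low signal. For 13 listed loci no probe set was named here, among them both RPS6 genes (AT4G31700 and AT5G10360), RPS10B, RPS13A, RPS15, RPS15A, both RPS18 genes (PFL and RPS18C) and RS27A. RPS6, RPS15, RPS15a, RPS18 and RPS27 are therefore not analysed here at all.

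The study asked how the transcription factor UPBEAT1 (UPB1) acts on the step at which root cells stop dividing and start to elongate. Roots of 6-day-old seedlings were divided under a microscope into elongation and meristematic zone, and about 60 roots went into each sample. There were 6 groups of 2 arrays each, described as biological replicates and amplified in 2 cycles: the line labelled 35S::UPB1-3YFP #2/upb1-1 (called OX below), upb1-1 and Col-0, each with an elongation and a meristematic zone. OX is 1 transgenic line in which the constitutive 35S promoter drives UPB1 fused to YFP in the upb1-1 background, so OX and upb1-1 share the upb1-1 allele, and all 3 genotypes share the Columbia background and the growth conditions. Each zone holds every cell type of the root at that level, and p-values measure only the spread between these samples.

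A 40S subunit has a head, a body and a platform, and the mRNA threads between head and body, entering past RPS2, RPS3 and RPS9 and leaving past RPS14 and RPS26, with RPS23 at the site where codon and tRNA are matched. Proteins and ribosomal RNA are assembled in the nucleolus with the help of many assembly factors, and dividing cells of the root tip are known for high ribosome production. In plants, the paralogues of one ribosomal protein can differ in where and how strongly they are expressed, and loss of a single one often gives pointed leaves or slow growth.

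The library labels and the arrays were checked first. The UPB1 probe set read 53.6 and 35.3 in OX elongation zones, 11.9 and 15.6 in upb1-1 elongation zones and 1379 and 1233 in Col-0 elongation zones. The same probe set read 28.1 and 55.2 in OX meristematic zones, 8.53 and 16.8 in upb1-1 meristematic zones and 667 and 528 in Col-0 meristematic zones. The arrays labelled OX were thus far below Col-0 for UPB1, and the sources used here do not say whether this probe set lies in the transgene, which means that it does not check the OX label. Among 8 markers of dividing cells only AUR1, a mitotic kinase, had a named probe set, and its signal was lower in the elongation zone (log2 difference -1.45 averaged over genotypes). The zone labels are thus checked by 1 marker of dividing cells only. The root hair markers with a probe set, EXPA7 and EXPA18, did not move alike between zones. Both were lower in the elongation zone in Col-0 (median log2 difference -1.68) and both higher in upb1-1 (1.55). In OX 1 was higher and 1 was not called. Array controls that read the 3' and 5' ends of actin, GAPDH and ubiquitin transcripts differed between groups: their mean log2 ratio of 3' over 5' signal was 3.97 in OX, 4.04 in upb1-1 and 3.93 in Col-0 elongation zones, and 4.17 in OX, 2.04 in upb1-1 and 2.22 in Col-0 meristematic zones. A higher ratio means less signal from the 5' end, and it moved with zone in upb1-1 and Col-0, and with genotype in the meristematic zone. The upb1-1 elongation arrays stood apart for the 40S probe sets: all 42 were lower on replicate 2 than on replicate 1, with a median difference of -0.79 on the log2 scale, against -0.05 over all tested probe sets. In Col-0 elongation zones 33 of 42 were also lower on replicate 2 (median -0.23), and in OX elongation zones 7 of 42 were (median 0.28).

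40S signals were lower in the elongation zone than in the meristematic zone. Averaged over the 3 genotypes, 36 of 42 probe sets were lower and 0 higher at an adjusted p below 0.05, where 36.6% of all 15834 tested probe sets were lower and 30.1% higher. The median log2 difference of the 42 was -0.87, against -0.05 over all tested probe sets. Lower signal from fewer cells of a type and from less of the RNA per cell cannot be told apart in such bulk samples. The 3' to 5' control ratio also differed between zones in upb1-1 (2.04 in meristematic, 4.04 in elongation zones) and Col-0 (2.22 and 3.93). In OX it was 4.17 and 3.97. Its part in the zone differences was not tested. The arrays' scaling moves these values: with each array centred on its median, the median over all tested probe sets was 0.20 and that of the 42 was -0.62, with 31 lower and 2 higher, which were RPS2 AT1G58380 (0.24) and RPS25 AT4G39200 (0.27).

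**Figure D1:**
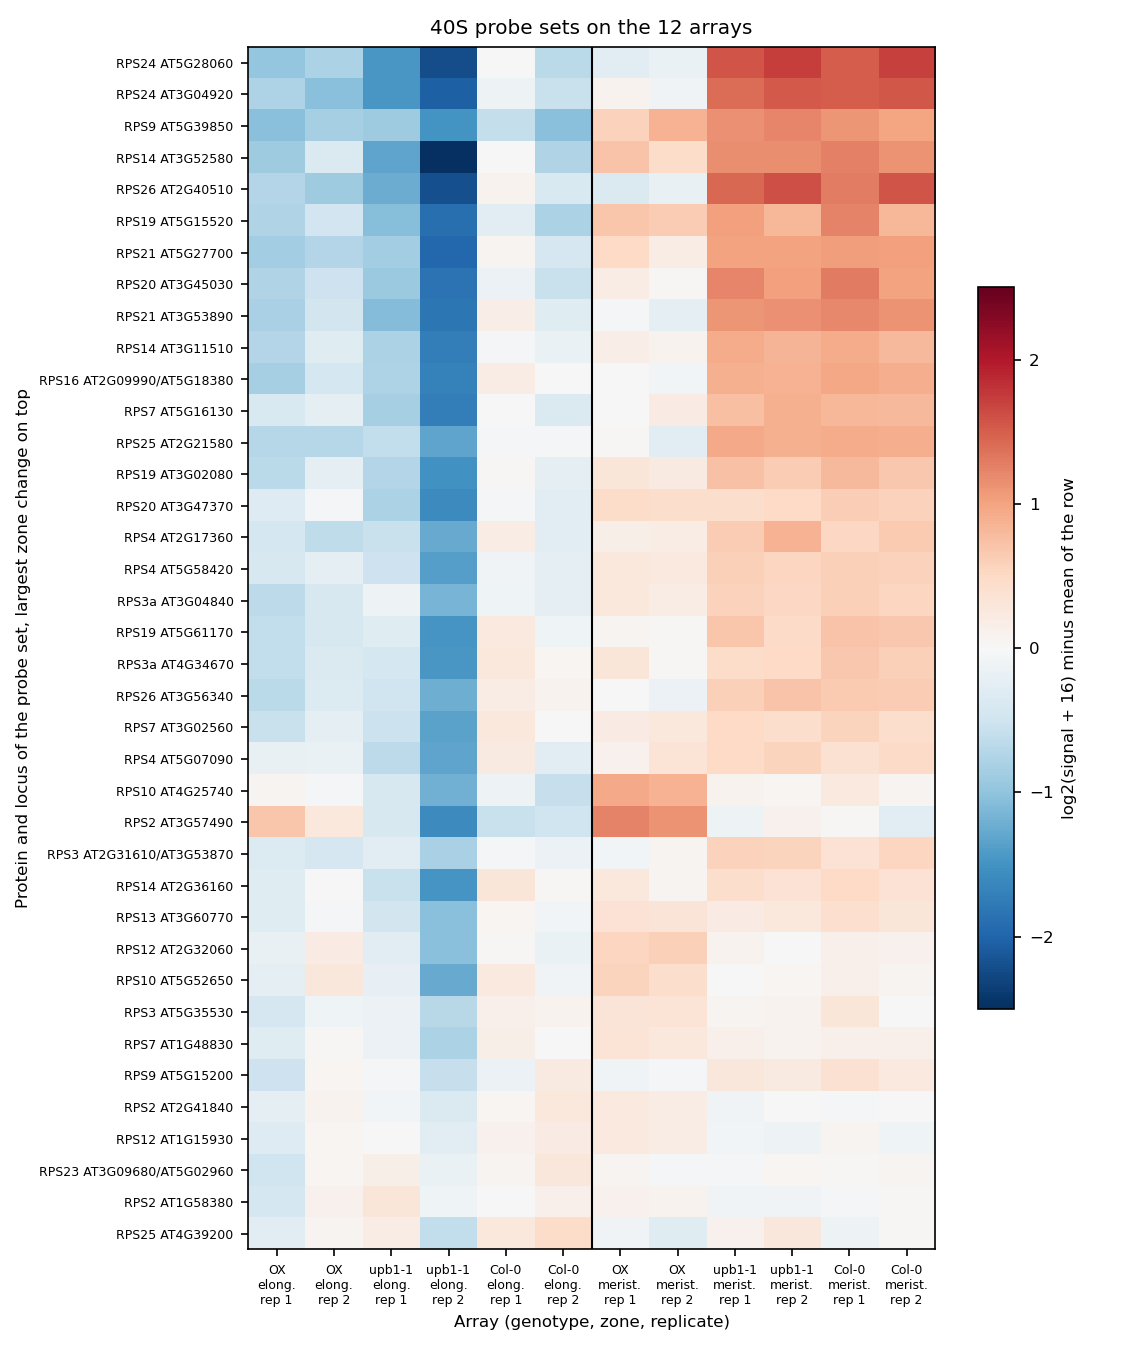
Each row is 1 of 38 of the 42 40S probe sets and each column 1 of the 12 arrays (OX, upb1-1 and Col-0 elongation zone, then the same for the meristematic zone, 2 replicates each); colour gives log2(signal + 16) minus the row's mean. Most rows are blue in the elongation zone, most of all in upb1-1 replicate 2, and the rows at the bottom barely differ between zones in the average over genotypes.

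By genotype, 24 probe sets were lower in OX (29.6% of all tested probe sets lower, 23.9% higher), with a median of -0.58. In upb1-1, 36 were lower (28.5% of all lower, 24.1% higher), with a median of -1.49. In Col-0, 21 were lower (22.8% of all lower, 17.5% higher), with a median of -0.58. None of the 42 was higher in the elongation zone in any genotype in this fit. With arrays centred on their median, 3 were higher in Col-0 (RPS2 AT2G41840, RPS12 AT1G15930 and RPS25 AT4G39200) and 1 in upb1-1 (RPS2 AT1G58380). AT4G39200 was also higher in Col-0 by quantile normalization and with only these groups in the fit. The OX count rests on few arrays: it was 8 without OX meristematic replicate 1, 10 without replicate 2 and 9 without OX elongation replicate 1. It was 9 with arrays centred on their median and 15 with no filter or with no trend in the variance. In Col-0 it was 14 without meristematic replicate 1 and 14 without elongation replicate 2. In the signed values, 37 of 42 probe sets were below 0 in each of the 3 genotypes.

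Among the smallest p-values of the zone comparison were those of RPS24 and RPS9. RPS24 is a body protein needed, in yeast and human cells, for processing of the small subunit's ribosomal RNA. RPS24 AT3G04920 read 706 and 577 in OX elongation zones, against 1297 and 1139 in OX meristematic zones. It read 432 and 280.4 in upb1-1 elongation zones, against 3208 and 3525 in upb1-1 meristematic zones. In Col-0 it read 1103 and 814 in elongation and 3502 and 3609 in meristematic zones. Every elongation array was below every meristematic array, and the difference averaged -2.0 (SE 0.12, adjusted p = 4.85e-09). RPS24 AT5G28060 read 739.6 and 840.5 in OX elongation zones, against 1219 and 1301 in OX meristematic zones. It read 525 and 302 in upb1-1 elongation zones, against 4392 and 4906 in upb1-1 meristematic zones. In Col-0 it read 1452 and 913 in elongation and 4202 and 4784 in meristematic zones. Within each genotype the zones did not overlap, but the higher Col-0 elongation array was above both OX meristematic arrays; the averaged difference was -2.03 (SE 0.14, adjusted p = 1.46e-08).

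RPS9 AT5G39850 read 71.8 and 86.3 in OX elongation zones, against 256 and 314 in OX meristematic zones. It read 82.6 and 48.5 in upb1-1 elongation zones, against 387 and 409.8 in upb1-1 meristematic zones. In Col-0 it read 104 and 71.7 in elongation and 373 and 344 in meristematic zones. This RPS9 gene, whose protein lines the mRNA entry, gave the dimmest of the 42 probe sets, its zones did not overlap, and the averaged difference was -1.97 (SE 0.13, adjusted p = 1.21e-08).

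At the mRNA exit, all 3 RPS14 probe sets and both RPS26 probe sets were lower in the elongation zone. RPS14 AT3G52580 averaged -1.96 (SE 0.19, adjusted p = 3.33e-07). The other RPS14 genes gave -1.26 (AT3G11510) and -0.67 (AT2G36160). RPS26 AT2G40510, a probe set shared with AT2G40590, averaged -1.78 (SE 0.15, adjusted p = 8.16e-08), and RPS26 AT3G56340 averaged -0.82. RPS3a, a platform protein on the same side, averaged -0.89 (AT3G04840) and -0.85 (AT4G34670). RPS21, a small protein of the body, averaged -1.60 (AT5G27700) and -1.43 (AT3G53890).

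Among body proteins, RPS4 gave -0.99 (AT2G17360), -0.94 (AT5G58420) and -0.79 (AT5G07090). RPS7 gave -1.17 (AT5G16130), -0.79 (AT3G02560) and -0.36 (AT1G48830). RPS13 AT3G60770, close to the face that joins the large subunit, gave -0.62. All of these passed the test in the average over genotypes.

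In the head, 13 of 15 probe sets were lower, with a median of -0.76. In body and platform 23 of 27 were, with a median of -0.90, where 36.6% of all tested probe sets were lower. Head and the rest were not tested against each other. RPS19, needed in yeast and human cells for maturation of the small subunit's RNA, averaged -1.74 (AT5G15520), -1.13 (AT3G02080) and -0.89 (AT5G61170). RPS20 gave -1.58 (AT3G45030) and -1.01 (AT3G47370). RPS16, whose tail reaches the tRNA in the peptidyl site, gave -1.19 for the probe set shared by AT2G09990 and AT5G18380. RPS10 gave -0.76 (AT4G25740) and -0.41 (AT5G52650), and RPS12 AT2G32060 gave -0.49. At the mRNA entry, RPS3 gave -0.68 for the set shared by AT2G31610 and AT3G53870 and -0.38 for AT5G35530, RPS2 AT3G57490 gave -0.70, and RPS9 AT5G15200 gave -0.34. RPS25 AT2G21580, a head protein that helps some mRNAs start translation without a cap in yeast and human cells, gave -1.14.

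The 6 probe sets not called in that average included RPS2 AT1G58380 (0.00) and AT2G41840 (-0.10), RPS12 AT1G15930 (-0.07), RPS23 AT3G09680/AT5G02960 (-0.04) and RPS25 AT4G39200 (0.03). For AT4G39200 the average holds opposite values, 0.41 in Col-0 and -0.41 in upb1-1, neither of them called. The 6 probe sets were among the brightest of the 42. Their mean signals over the 12 arrays were 8781 or more, against 212 to 9112 for the 36 called, and the brightest probe set of any kind on an array read 9484 to 16433. Across the 42 probe sets, mean log2 signal and averaged log2 zone difference had a Pearson correlation of 0.80 and a Spearman correlation of 0.81, a description over genes read on the same 12 arrays. The mean signal includes the elongation arrays, so a larger fall itself lowers it. Whether the upper end of the scanner's range compresses the differences of these probe sets was not tested.

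**Figure D2:**
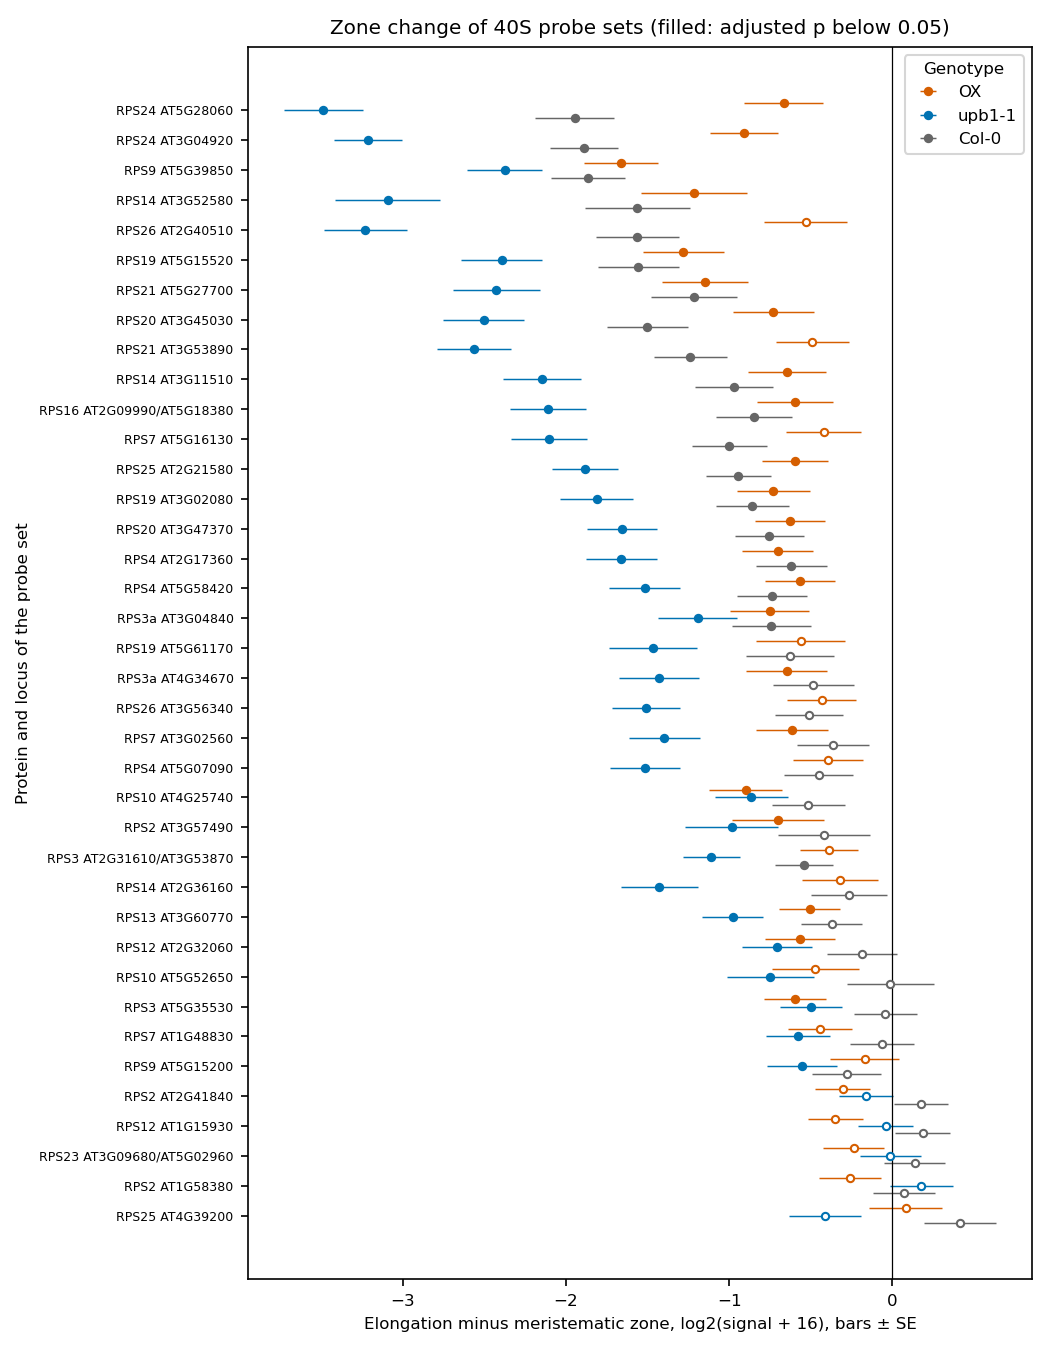
Elongation minus meristematic zone for 38 of the 42 40S probe sets in OX, upb1-1 and Col-0, on the log2(signal + 16) scale with standard errors; filled points passed an adjusted p of 0.05. The upb1-1 points lie below those of Col-0 for 37 of these 38 probe sets, and RPS24 and RPS26 AT2G40510 spread most between genotypes.

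In the meristematic zone, upb1-1 and Col-0 did not differ detectably for any 40S probe set. None of the 42 was called by limma and 0 had an unadjusted p below 0.05; 0.0379% of all tested probe sets were called, which is 6 probe sets. The median log2 difference was -0.04, and the highest single value was 0.25 (RPS25 AT4G39200). RPS24 AT5G28060, for example, read 4392 and 4906 in upb1-1 and 4202 and 4784 in Col-0, with overlapping groups.

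In the elongation zone, 24 of 42 probe sets were lower in upb1-1 than in Col-0 and 0 were higher (9.45% and 9.36% of all tested probe sets). The median log2 difference was -0.87, against -0.02 over all tested probe sets, and 41 of 42 values were below 0. This count depends on single arrays: 37 were called without upb1-1 replicate 1, 8 without upb1-1 replicate 2, 5 without Col-0 replicate 1 and 7 when the fit held only the arrays of these groups. The median moved with them, to -1.30 without upb1-1 replicate 1 and -0.40 without upb1-1 replicate 2. The summed signal of the 42 was 2.07% of the total on upb1-1 replicate 1 and 1.35% on replicate 2, against 2.65% and 2.43% in Col-0. The median SD of the 42 between the upb1-1 elongation arrays was 0.56 on the log2 scale, against 0.23 over all tested probe sets, and what sets the 2 arrays apart was not tested.

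The smallest p-values were again those of RPS24 and RPS26, and for these 3 probe sets no single array removed the call. RPS24 AT3G04920 read 432 and 280.4 in upb1-1 and 1103 and 814 in Col-0 elongation zones, a log2 difference of -1.40 (SE 0.21, adjusted p = 0.000826). RPS24 AT5G28060 read 525 and 302 in upb1-1 and 1452 and 913 in Col-0, a log2 difference of -1.49 (SE 0.24, adjusted p = 0.00144). RPS26 AT2G40510 read 654 and 327 in upb1-1 and 1649 and 1198 in Col-0, a log2 difference of -1.57 (SE 0.25, adjusted p = 0.00146). In all 3 both upb1-1 arrays were below both Col-0 arrays. RPS14 AT3G52580 differed as much (-1.57), and RPS21 AT3G53890 (-1.37), RPS16 (-1.33), RPS21 AT5G27700 (-1.24) and RPS14 AT2G36160 (-1.19) followed.

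OX was above upb1-1 in the elongation zone for 20 of 42 probe sets and below it for 0 (11.6% of all tested probe sets higher, 12.6% lower), with a median of 0.61. This comparison shares the upb1-1 arrays with the previous one: it gave 32 calls without upb1-1 replicate 1, 3 without upb1-1 replicate 2, 4 without OX replicate 2 and 6 with only these groups in the fit. Its median was 1.06 without upb1-1 replicate 1 and 0.17 without upb1-1 replicate 2. RPS2 AT3G57490 read 2704 and 2005 in OX and 1257 and 539 in upb1-1, a log2 difference of 1.48 (SE 0.28, adjusted p = 0.00192). RPS20 AT3G47370 read 3704 and 4575 in OX and 2671 and 1541 in upb1-1, a log2 difference of 1.01 (SE 0.21, adjusted p = 0.00356). In both the groups did not overlap and no single array removed the call.

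Between OX and Col-0 elongation zones 2 probe sets were higher and 1 lower (6.64% and 7.46% of all tested probe sets), with a median of -0.31. RPS2 AT3G57490 was higher, with 2704 and 2005 in OX against 1119 and 1167 in Col-0, a log2 difference of 1.02 (SE 0.28, adjusted p = 0.0283). RPS25 AT2G21580 was lower, with 915 and 914 in OX against 1474 and 1478 in Col-0, a log2 difference of -0.68 (SE 0.20, adjusted p = 0.0358). Without OX replicate 1, Col-0 replicate 1 or Col-0 replicate 2 only 1 call was made in this comparison, and it was neither of these 2: the RPS2 call was lost in each of these 3 fits, and the RPS25 call was lost without any of the 4 arrays. The median was -0.15 without OX replicate 1 and -0.48 without OX replicate 2, and -0.15 by quantile normalization.

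**Figure D3:**
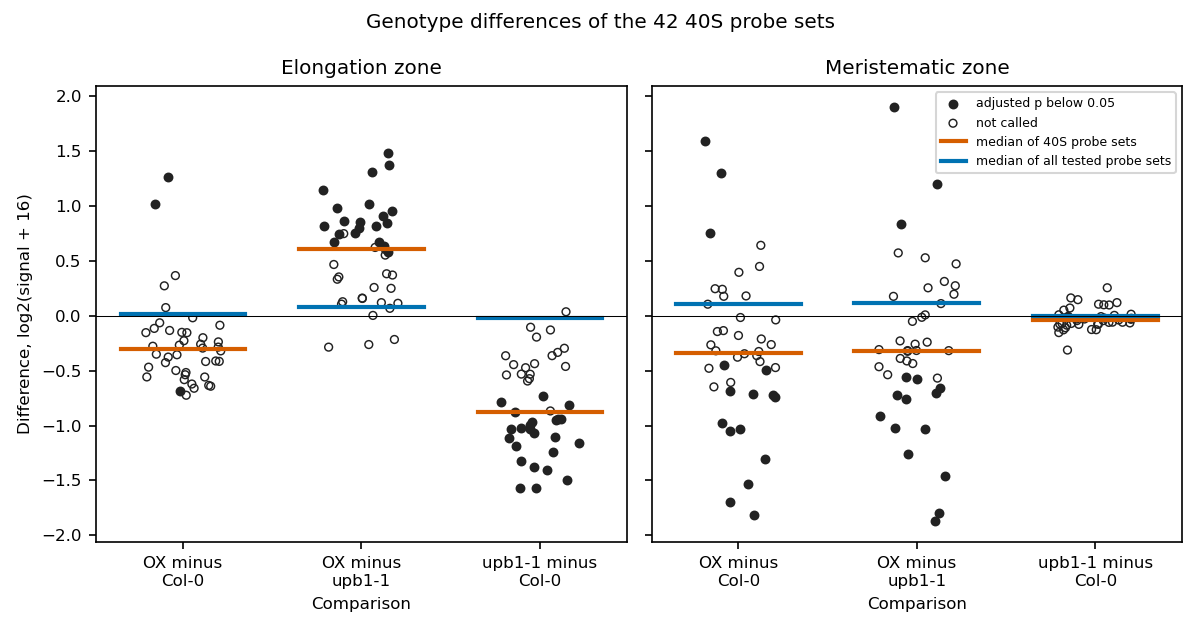
Log2 differences of the 42 40S probe sets between genotypes in the elongation zone (left) and the meristematic zone (right); each point is a probe set, filled where the adjusted p was below 0.05, and the bars are medians of the 42 and of all tested probe sets. In the elongation zone the 42 lie mostly below 0 for upb1-1 minus Col-0 (median -0.87), and in the meristematic zone that comparison stays near 0 while OX differs from both in either direction.

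**Figure D4:**
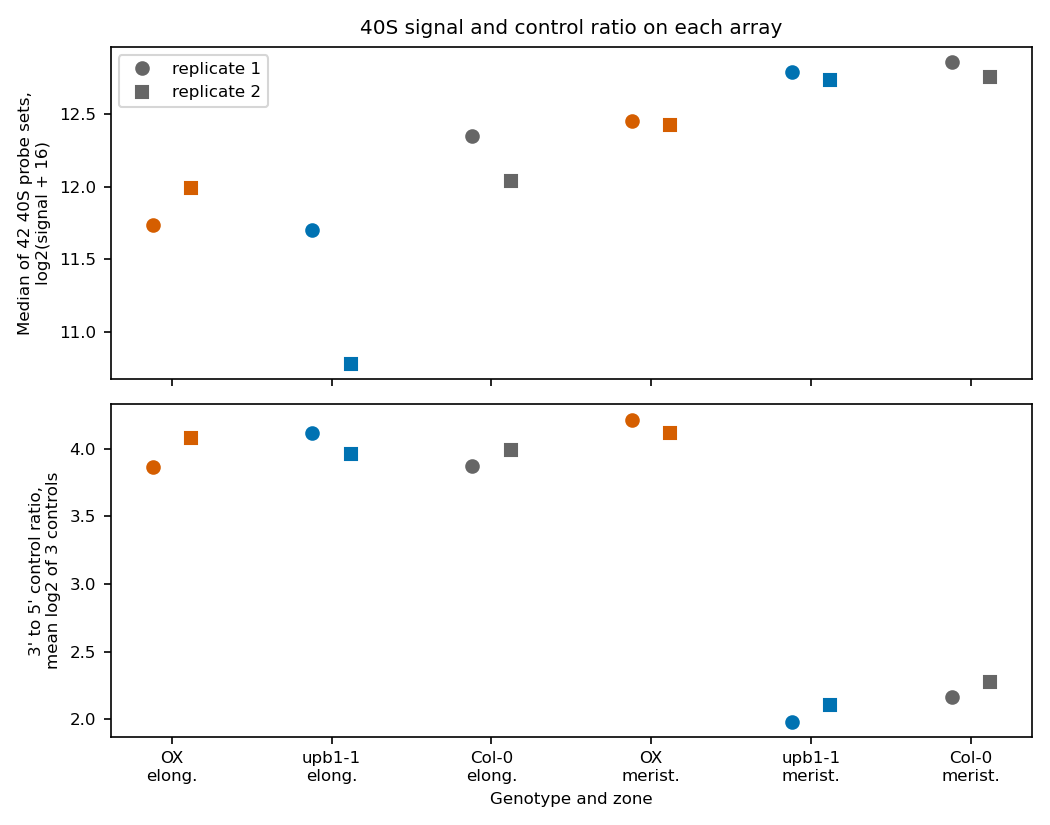
For each of the 12 arrays, the median log2(signal + 16) of the 42 40S probe sets (top) and the mean log2 ratio of 3' over 5' signal for 3 control transcripts (bottom); circles are replicate 1 and squares replicate 2. The upb1-1 elongation replicate 2 has the lowest 40S median (10.78), and the 4 meristematic arrays of upb1-1 and Col-0 have the lowest control ratios.

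In the meristematic zone OX differed from both other genotypes over much of the array, and the 40S probe sets went both ways. Calls for OX were common over all tested probe sets, so the counts below are no result about the 40S probe sets as a group. Against Col-0, 3 were higher and 13 lower (26% and 23.5% of all tested probe sets), with a median of -0.34, against 0.10 over all tested probe sets. By quantile normalization the split was 6 higher and 7 lower, with a median of -0.15, and with only these groups in the fit 7 were higher and 23 lower. Without Col-0 replicate 1 the count was 10 and without Col-0 replicate 2 it was 9. Against upb1-1, 3 were higher and 13 lower (27.5% and 24.5%), with a median of -0.32; the split by quantile normalization was 6 and 8 with a median of -0.19, and without upb1-1 replicate 2 the count was 10. Both comparisons share the OX arrays. The OX arrays also had the higher 3' to 5' control ratio (4.17, against 2.04 in upb1-1 and 2.22 in Col-0), whose part in these differences was not tested.

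The 3 probe sets that were higher in OX than in Col-0 meristematic zones included RPS2 AT3G57490 and RPS10 AT4G25740. RPS2 AT3G57490 read 3931 and 3662 in OX, 1517 and 1792 in upb1-1 and 1706 and 1378 in Col-0, a log2 difference of 1.30 (SE 0.28, adjusted p = 0.00165) against Col-0. RPS10 AT4G25740, a head protein, read 5299.5 and 5063 in OX, 2934 and 2859.9 in upb1-1 and 3274 and 2892 in Col-0, a log2 difference of 0.75 (SE 0.22, adjusted p = 0.0124) against Col-0. For both genes the OX arrays were above the 4 other arrays, and the RPS2 call held without any 1 array while that of RPS10 was lost without 2 of the 4.

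Among the 13 lower ones, RPS24 and RPS26 had the smallest p-values, and their calls held without any 1 array. RPS24 AT5G28060 read 1219 and 1301 in OX, 4392 and 4906 in upb1-1 and 4202 and 4784 in Col-0, a log2 difference of -1.82 (SE 0.24, adjusted p = 2.64e-05) against Col-0. RPS24 AT3G04920 read 1297 and 1139 in OX, 3208 and 3525 in upb1-1 and 3502 and 3609 in Col-0, a log2 difference of -1.54 (SE 0.21, adjusted p = 3.19e-05) against Col-0. RPS26 AT2G40510 read 1212 and 1357 in OX, 4215 and 4768 in upb1-1 and 3781 and 4634 in Col-0, a log2 difference of -1.69 (SE 0.25, adjusted p = 7.73e-05) against Col-0. Both OX arrays were below the 4 other arrays in each. For AT5G28060 and AT2G40510 the OX meristematic values lay between those of the 2 Col-0 elongation arrays. The others included RPS21 AT3G53890 (-1.31), RPS20 AT3G45030 (-1.05), RPS25 AT2G21580 (-1.03) and RPS16 (-0.98).

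The size of the zone difference itself was compared between genotypes with an interaction term. For upb1-1 against Col-0, 4 probe sets fell more steeply in upb1-1 and 0 less steeply (0.783% and 1.48% of all tested probe sets), and the median of the 42 was -0.84. They were RPS26 AT2G40510 (-1.67), RPS24 AT5G28060 (-1.54), RPS21 AT3G53890 (-1.33) and RPS24 AT3G04920 (-1.32). That median was -1.28 without upb1-1 elongation replicate 1 and -0.39 without upb1-1 elongation replicate 2. The count was 33 without upb1-1 elongation replicate 1, 7 without Col-0 elongation replicate 2 and 0 without any of the other 6 arrays of these groups. It was also 0 with a pseudocount of 1, with no filter, with no trend in the variance and with only these groups in the fit, and 7 with arrays centred on their median. For OX against Col-0, 3 fell less steeply in OX and 0 more steeply (13.2% and 10.8% of all tested probe sets), and the median was 0.06, with -0.13 to 0.12 without single arrays and -0.09 by quantile normalization. They were RPS24 AT5G28060 (1.28), RPS26 AT2G40510 (1.03) and RPS24 AT3G04920 (0.98). That count was 0 without Col-0 meristematic replicate 2 or Col-0 elongation replicate 2, and 1 without Col-0 meristematic replicate 1, OX elongation replicate 1 or 2, or OX meristematic replicate 2.

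Paralogues of the same protein were compared in how much they changed between zones. The log2 ratio of 2 paralogues' signals on the same array was compared between zones by an exact two-sided permutation test of the zone labels within each genotype (216 arrangements, smallest possible p 0.00926) for all 26 pairs of probe sets of one protein. At an adjusted p below 0.05 over the 26 pairs, 17 pairs differed. In 15 of these 17 pairs the brighter probe set changed less, as in 18 of all 26, so that brightness and paralogue move together here and its part was not tested. Leaving out single arrays gave 13 to 18 pairs.

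For RPS9, the log2 ratio of AT5G15200 over AT5G39850 was 6.15 and 6.50 in OX elongation zones, against 4.96 and 4.71 in OX meristematic zones. It was 6.48 and 6.54 in upb1-1 elongation zones, against 4.75 and 4.62 in upb1-1 meristematic zones, and 6.07 and 6.89 in Col-0 elongation zones, against 4.90 and 4.88 in Col-0 meristematic zones. Every elongation array had a higher ratio than every meristematic array. The difference was 1.63 on average (exact permutation p = 0.00926, adjusted p = 0.0185), with 1.49 in OX, 1.82 in upb1-1 and 1.59 in Col-0. AT5G15200 read 6230.0 and 9249.9 in OX, 8763 and 5998 in upb1-1 and 8057 and 10388 in Col-0 elongation zones, and 8449 and 8639.8 in OX, 10836 and 10487 in upb1-1 and 11630.1 and 10614 in Col-0 meristematic zones. For RPS25, AT2G21580 over AT4G39200 was lower in the elongation zone by a log2 ratio of -1.17 at the same p, with -0.68 in OX, -1.47 in upb1-1 and -1.36 in Col-0. AT4G39200 read 7718 and 9954 in OX, 10755 and 6178 in upb1-1 and 11409.7 and 12920.4 in Col-0 elongation zones, and 8912 and 7693 in OX, 10199 and 11552 in upb1-1 and 8633 and 9600.3 in Col-0 meristematic zones. Its zones overlapped in OX and in upb1-1, while in Col-0 both elongation arrays were above both meristematic ones.

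The 3 RPS14 genes differed in the size of their zone difference, which was smallest for AT2G36160, then AT3G11510, then AT3G52580. AT2G36160 over AT3G52580 was higher in the elongation zone by 1.28, AT3G11510 over AT3G52580 by 0.70 and AT2G36160 over AT3G11510 by 0.58, each with an exact permutation p of 0.00926. AT3G52580 read 1410.5 and 2038 in OX, 1049.5 and 431 in upb1-1 and 2660.4 and 1555 in Col-0 elongation zones, against 4299 and 3641 in OX, 5869.6 and 5882 in upb1-1 and 6310.3 and 5781 in Col-0 meristematic zones. AT2G36160 read 4228 and 5188 in OX, 3526 and 1866 in upb1-1 and 6414 and 5343 in Col-0 elongation zones, against 6239 and 5503 in OX, 7122 and 6745 in upb1-1 and 7363 and 6748 in Col-0 meristematic zones. AT3G11510 read 2617 and 3552 in OX, 2511 and 1304 in upb1-1 and 4242 and 3914 in Col-0 elongation zones, against 4915 and 4655 in OX, 8330.1 and 7842 in upb1-1 and 8388 and 7655 in Col-0 meristematic zones. Within each genotype all 3 genes were below their meristematic values in every elongation array.

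Among the 3 RPS19 genes, AT5G15520 had the largest zone difference: AT5G15520 over AT5G61170 differed by -0.86 and AT3G02080 over AT5G15520 by 0.61, both at the smallest exact permutation p. AT5G15520 read 473 and 579 in OX, 378 and 209 in upb1-1 and 671 and 461 in Col-0 elongation zones, against 1328 and 1259 in OX, 1656 and 1454 in upb1-1 and 1923 and 1449 in Col-0 meristematic zones. AT3G02080 read 3085 and 4173 in OX, 2961 and 1709.9 in upb1-1 and 5028 and 4174 in Col-0 elongation zones, against 6111 and 5807 in OX, 8183 and 7695 in upb1-1 and 8703 and 7936 in Col-0 meristematic zones. AT5G61170 read 2944 and 3408 in OX, 3691 and 1623 in upb1-1 and 5368 and 4208 in Col-0 elongation zones, against 4732 and 4630.5 in OX, 7329.9 and 6316 in upb1-1 and 7462 and 7233 in Col-0 meristematic zones. In each of the 3 genes the zones of a genotype did not overlap.

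Pairs of RPS20, RPS26, RPS12 and RPS10 and the RPS2 pairs with AT3G57490 also passed the test. So did RPS7 AT1G48830 over AT3G02560 and RPS4 AT2G17360 over AT5G07090. For RPS20 AT3G45030 over AT3G47370 the difference was -0.10 in OX, -0.85 in upb1-1 and -0.75 in Col-0. For RPS26 AT2G40510 over AT3G56340 it was -0.10 in OX, -1.72 in upb1-1 and -1.05 in Col-0. The calls of the RPS26, RPS10 and RPS2 pairs were lost without some single arrays. Pairs that did not pass were not distinguished, which does not make them alike. The largest difference among them was 0.81, for RPS7 AT1G48830 over AT5G16130 (exact permutation p = 0.037, adjusted p = 0.0535). Others were close to each other. The zone differences of the RPS24 genes, AT3G04920 and AT5G28060, were 0.03 apart (exact permutation p = 0.833). RPS4 AT2G17360 and AT5G58420 were -0.05 apart (p = 0.583 by the same exact test), and the RPS3a genes -0.04 apart (p = 0.509 by the same exact test). In the elongation zone the group difference of upb1-1 from Col-0 in the ratio was 0.09 for RPS24 and 0.63 for RPS3a AT3G04840 over AT4G34670. In the meristematic zone, the ratio in OX minus that in Col-0 was -1.19 for RPS2 AT1G58380 over AT3G57490, -0.98 for RPS26 AT2G40510 over AT3G56340 and -0.91 for RPS20 AT3G45030 over AT3G47370. These comparisons of 2 arrays with 2 cannot reach an exact p below 0.05 and are given as values.

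**Figure D5:**
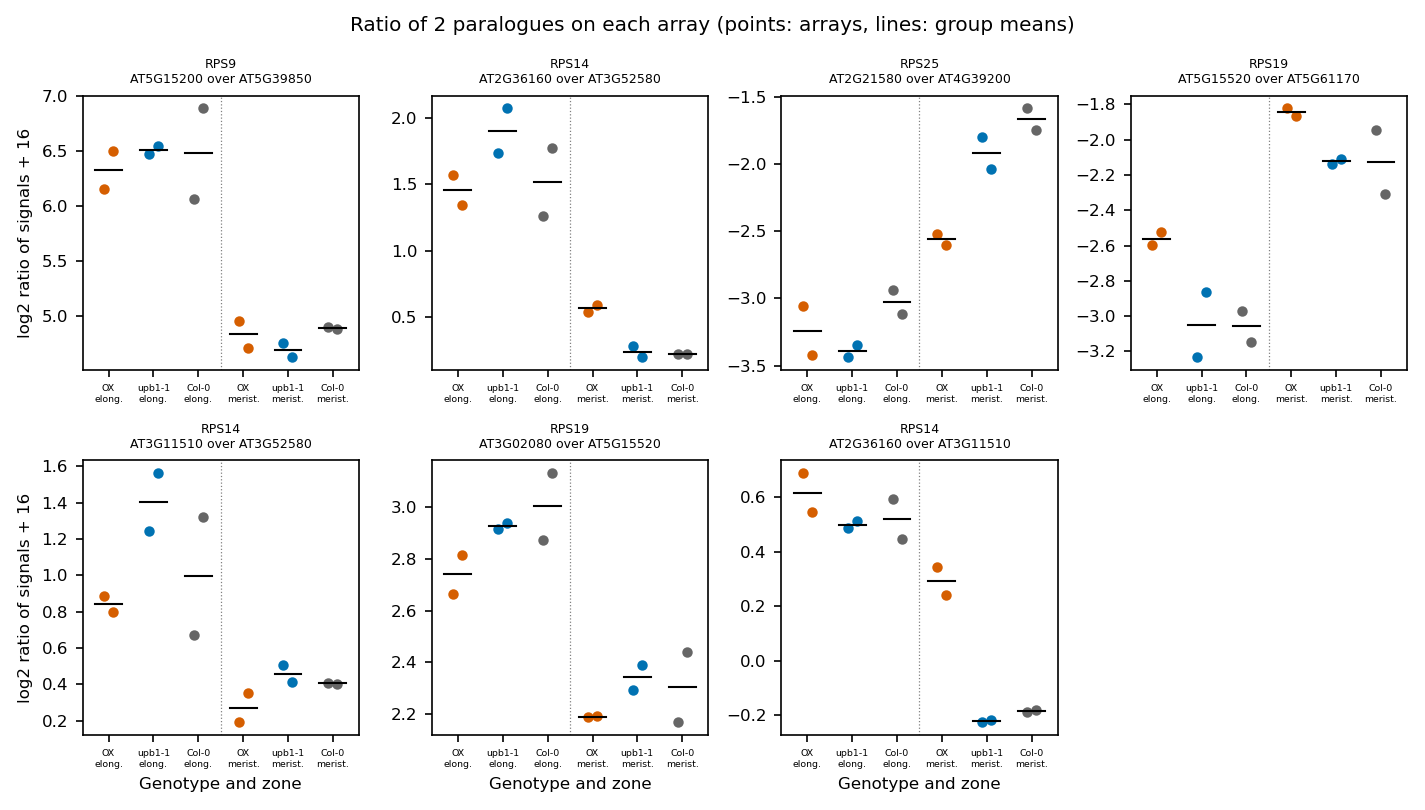
Log2 ratio of 2 paralogues' signals (signal + 16) on each array for 7 of the 8 pairs with the smallest exact p and the largest difference; points are arrays, bars group means, and groups run from OX, upb1-1 and Col-0 elongation zone to the same for the meristematic zone. In all 7 pairs the elongation and meristematic arrays of a genotype do not overlap, which the smallest exact p requires.

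The 60S proteins, the other subunit's set, are the closest comparison: 83 of 112 listed loci had a named probe set, giving 75 tested probe sets. Averaged over genotypes, 36 of 42 40S probe sets were lower in the elongation zone and 63 of 75 60S probe sets were, with medians of -0.87 and -0.92. Of all tested probe sets 36.6% were lower in that average. In upb1-1 minus Col-0 elongation zones the medians were -0.87 for 40S and -0.79 for 60S (24 of 42 and 46 of 75 lower, with 9.45% of all tested probe sets lower). In OX minus Col-0 meristematic zones they were -0.34 and -0.31. Assembly factors, of which 11 of 28 loci had a probe set, were lower in the elongation zone in all 11 (median -1.68). In OX minus Col-0 meristematic zones 6 of these 11 were higher and 0 lower (median 0.81). Of the 42 40S probe sets 3 were higher and 13 lower there, or 6 and 7 by quantile normalization, which is no result about them as a group. Of all tested probe sets 26% were higher and 23.5% lower in that comparison. YAO, a nucleolar protein of that list, read 1605 and 1903 in OX and 596 and 567 in Col-0 meristematic zones. Of translation factors 4 of 25 loci and of the TOR pathway 2 of 6 had a probe set. In the average over genotypes 3 of the 4 and 1 of the 2 (RAPTOR2) were lower in the elongation zone, too few to set against the share of all tested probe sets. RAPTOR2 was dim, at 11.6 to 89.9 over the arrays, as was the translation factor AT5G12110, at 4.61 to 133.7. RACK1, and the markers of xylem, root cap and photosynthesis, had no named probe set. The root hair markers EXPA7 and EXPA18, 2 of 8 listed, were both higher in upb1-1 than in Col-0 elongation zones (median difference 3.13) and both lower in OX than in Col-0 in the elongation zone (median -2.04) and in the meristematic zone (median -4.03). AUR1, the marker of dividing cells, was lower in upb1-1 than in Col-0 elongation zones (log2 difference -0.83). It was higher in OX than in Col-0 meristematic zones (0.86). Between OX and Col-0 elongation zones (-0.26) and between upb1-1 and Col-0 meristematic zones (-0.05) it was not called. The part of such shifts in cell type in the 40S values was not tested.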

How the data were processed

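The deposited table holds 1 intensity per probe set and array on a linear scale, made by the authors with MAS5, per the submitters' processing notes; its version and settings are not given in the sources used here, and every array has nearly the same trimmed mean. All 12 columns were matched to samples by their labels. Signals were tested as log2(signal + 16) with limma 3.58.1 in R 4.3.3 (group means for 6 groups, variance trend, Benjamini-Hochberg adjustment over all tested probe sets, threshold 0.05). Control probe sets were left out, and the test was run on probe sets at or above the 40th percentile of an array on at least 2 arrays, 15834 of 22746. The log2 differences understate changes of dim probe sets.

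Probe sets were assigned to loci by the supplied annotation, which names 14016 of them. Protein names follow established Arabidopsis nomenclature. A ribosomal protein word was found among the supplied symbols and synonyms of 12 of the 13 loci with no probe set named here. The assigned protein itself was not compared with them, and the 47 loci with a probe set were not checked this way. Place in the subunit comes from textbook structures. Members and lists (60S proteins, assembly and translation factors, TOR pathway, RACK1, and markers of meristem, root hair, xylem, root cap and photosynthesis) were chosen with earlier results of these data known. Values per array are given for the 4 members with the smallest p in the averaged zone comparison, for up to 3 per direction where genotypes are compared in one zone, and for the members of the 8 paralogue pairs with the smallest p, the larger difference first among ties. Some members among these are not reported here; counts and medians include all 42 probe sets.

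Alternatives were quantile normalization, median centring, pseudocounts of 1 and 64, no filter, no variance trend, only the groups compared, a replicate block and leaving out each array; fits on arrays of the same zone alone were added after seeing the data. The scripts were tested on simulated data. Replicate numbers were not taken to pair the arrays: of 15 correlations between groups' deviations, 2 exceeded 0.1 (range -0.15 to 0.28). The highest was that between Col-0 and upb1-1 elongation zones, so a part shared by replicates is possible there. Replicates correlated at 0.966 to 0.989. Precision is limited by having 2 arrays in each group.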

Additional observations from a re-analysis of the deposited data

Results flagged for a closer look

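The zone difference of 4 probe sets differed between upb1-1 and Col-0 by the test of the interaction, all in the direction in which 0.783% of all tested probe sets were called. The value, elongation minus meristematic zone in upb1-1 less the same in Col-0, was -1.67 for RPS26 AT2G40510, -1.54 for RPS24 AT5G28060, -1.33 for RPS21 AT3G53890 and -1.32 for RPS24 AT3G04920, all on the log2 scale. Each of these 4 calls was lost in 6 of the 8 fits without 1 array.

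Between OX and Col-0 the zone difference of 3 of these probe sets differed the other way, by 1.28 for RPS24 AT5G28060, 1.03 for RPS26 AT2G40510 and 0.98 for RPS24 AT3G04920. The calls were lost in 3 of 8 fits without 1 array for AT5G28060, in 7 of 8 for AT2G40510 and in 5 of 8 for AT3G04920. In this direction 13.2% of all tested probe sets were called, so that 3 of 42 is no result about the 40S probe sets as a group. Both comparisons share the Col-0 arrays.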

How the results depend on the processing

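The counts of called 40S probe sets for the zone differences in upb1-1 (36), in Col-0 (21) and averaged over genotypes (36), the 0 calls between upb1-1 and Col-0 meristematic zones, and the 17 paralogue pairs stayed within 1.5 times under the alternatives run. The OX zone count of 24 was 9 with median centring, 15 with no filter and 15 with no trend, and 8 to 23 without single arrays. OX against Col-0 meristematic zones (16) gave 30 with only these groups, 32 with arrays of the same zone alone (chosen after seeing the data) and 9 to 11 without single arrays. OX against upb1-1 meristematic zones (16) gave 35 with only these groups, 35 with the same zone alone and 10 to 12 without single arrays. In elongation zones, upb1-1 against Col-0 (24) gave 7 with only these groups and 5 to 37 without single arrays. OX against upb1-1 (20) gave 6 with only these groups, 7 with the same zone alone and 3 to 32 without single arrays. OX against Col-0 (3) gave 5 with median centring, 5 with a pseudocount of 64, 1 with no filter, with no trend and with the same zone alone, and 1 to 3 without single arrays. The upb1-1 interaction (4) gave 7 with median centring, 0 with a pseudocount of 1, no filter, no trend and only these groups, and 0 to 33 without single arrays. The OX interaction (3) gave 1 with no trend, 5 with only these groups and 0 to 3 without single arrays. No call of a single probe set turned its direction, and the cause of these shifts was not tested. Replicate numbers were not taken to pair the arrays in the main fit, and with a replicate block the counts were 24, 36 and 22 for the zones in OX, upb1-1 and Col-0 and 25 for upb1-1 against Col-0 elongation zones. No locus had a second probe set of its own, so that alternative was not run.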
